A study of Rattus norvegicus with 4 samples.

Results

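Homeobox genes encode transcription factors that hold DNA through a homeodomain, and 8 of them were followed here in cultured rat Schwann cells (SCs): Pitx1, Pbx2, Pbx3, Meis1, Meis2, Prrx1, Msx1 and Msx2. They were 8 of the 17949 genes in the count table. Pitx1 was chosen by its measured fall in Lenti-AS, in the same comparison that is described here, so its values and their errors are given as a description, with no p-value. The other 7 genes were added as homeobox genes, those of the PBX and MEIS families also for their known partnership with HOX proteins. Of the 8 genes, 7 passed the filter on low counts (at least 10 counts in at least 2 samples) and Prrx1 did not.

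The cells were primary SCs, the glia that wrap and myelinate peripheral axons, taken from rat sciatic nerve and kept in serum with forskolin and heregulin. Lenti-AS (n = 2) received a lentivirus that expresses the Egr2-AS, an antisense RNA from the Egr2 promoter, in a vector that also carries a DsRed reporter. The control, Lenti-GFP (n = 2), received a virus expressing AcGFP1, so the groups differ in the reporter as well as in the antisense RNA, and RNA was taken 48 h after infection. The labels call the samples biological replicates without naming separate cultures or animals, so a p-value measures only the spread between these samples.

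PITX1 is a paired-like factor of the bicoid type, best known for giving the hindlimb its identity and for its role in the pituitary. PBX and MEIS proteins belong to the TALE class of homeodomain proteins and bind DNA together with one another and with HOX proteins, which sharpens the choice of site. PRRX1 marks limb and connective tissue mesenchyme, and MSX1 and MSX2 are repressors that respond to BMP signals.

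Total counts per sample lay between 74024323 and 96185890. Levels are given as CPM (counts scaled to a common library size) on library sizes scaled by the TMM method, and compare one gene between samples, not one gene with another, since gene length was not used. The Lenti-GFP samples correlated at 0.999 (Pearson, log2(CPM + 1) across the genes tested) and the Lenti-AS samples at 0.993, about as far apart as samples of different groups (0.993 to 0.995). In Lenti-AS 2 alone, 7 globin genes (Hbb and Hba-a1 among them) took 3395 CPM, against 4.85 to 10.8 CPM in the other samples, so the fold changes of the tested homeobox genes are also given without that sample. The SC markers Sox10, S100b, Erbb3 and Ngfr were counted in every sample, between 61.2 CPM for Sox10 in Lenti-AS 2 and 2357 CPM for S100b in Lenti-AS 1. Foxd3 has no row in the table used here. The Egr2-AS has no row either, so the labels could not be checked by its level. Egr2 itself, the gene the antisense RNA is named for, had a log2 fold change of 0.33 and did not pass the test (adjusted p = 0.152 by edgeR's quasi-likelihood test).

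Pitx1 was far lower in the Lenti-AS samples than in the controls. There were 463 and 468 counts in the Lenti-GFP samples and 48 and 35 counts in Lenti-AS 1 and Lenti-AS 2. The exact Poisson intervals of these counts (95%, counting error only) were 422 to 507, 427 to 512, 35.4 to 63.6 and 24.4 to 48.7. Scaled to depth, the levels were 4.96 and 4.94 CPM in Lenti-GFP and 0.548 and 0.466 CPM in Lenti-AS. The Lenti-AS values were thus both low and the Lenti-GFP values both high, and 4.39 CPM separated the nearest samples of the groups. The spread inside a group was 0.0222 CPM for Lenti-GFP and 0.0821 CPM for Lenti-AS. Lenti-GFP averaged 4.95 ± 0.0157 CPM and Lenti-AS 0.507 ± 0.0580 CPM (SD, n = 2 each), which is 9.77-fold lower. The fitted log2 fold change was -3.28 (standard error 0.20, 95% interval -3.76 to -2.80). Only 1 of the 12446 genes tested, Hoxd3, had a lower one.

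The value moved little when single samples were left out. The log2 fold change of Pitx1 was -3.41 without Lenti-AS 1, -3.17 without Lenti-AS 2, -3.27 without Lenti-GFP 1 and -3.28 without Lenti-GFP 2. A gene is called here when its Benjamini-Hochberg adjusted p is below 0.05 and it differs by 1.3-fold or more, the cut-offs of the study's methods. In a fit that leaves a group with 1 sample, the spread comes from the other group alone.

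**Figure D1:**
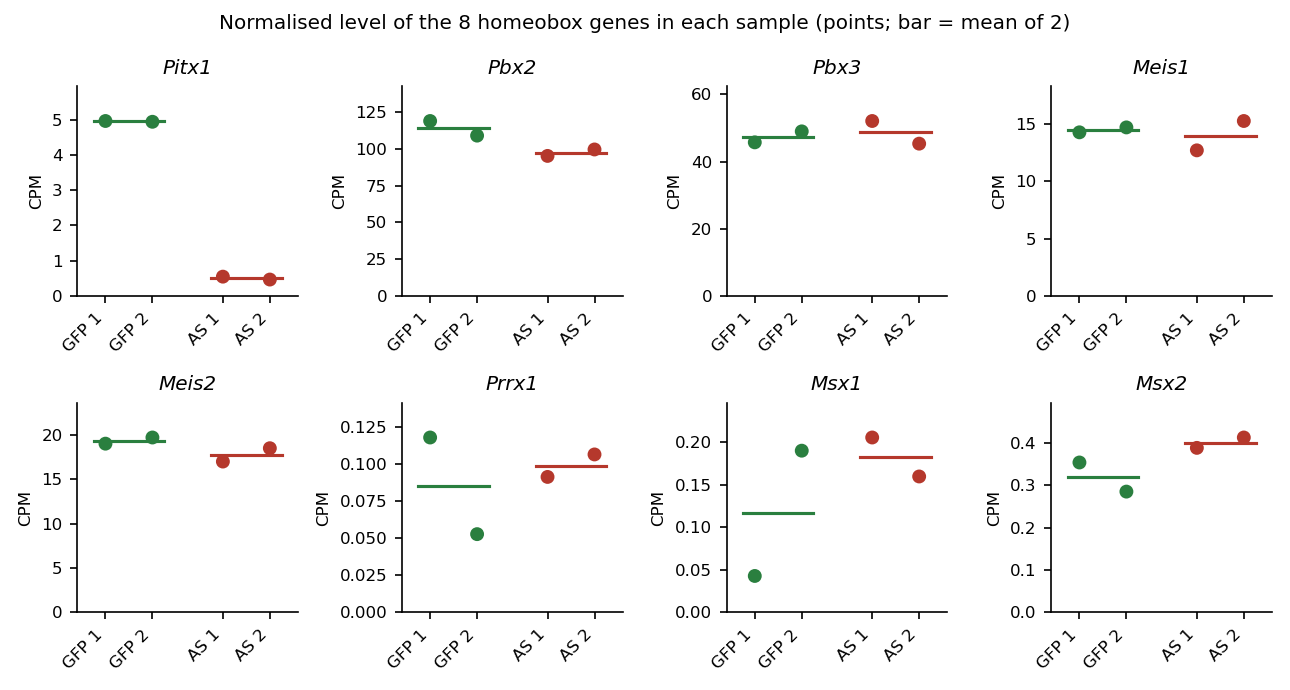
Normalised level in CPM (vertical axes, each starting at 0 with its own scale) of the 8 homeobox genes in the 2 Lenti-GFP samples (green) and the 2 Lenti-AS samples (red), with the mean of each group as a bar. Pitx1 lies near 5 CPM in both Lenti-GFP samples and near 0.5 CPM in both Lenti-AS samples, while the points of Pbx3, Meis1, Prrx1 and Msx1 overlap between the groups.

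Pitx3, a relative of Pitx1 known for its role in the lens and in dopaminergic neurons, was barely counted in these cells. It had 5 and 3 counts in Lenti-GFP and 4 and 13 in Lenti-AS, and was not tested.

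Genes that lie beside Pitx1 on its chromosome were not called. By the gene order of the GRCr8 assembly (the counts were made on rn6), the nearest tested genes were Neurog1 and H2afy on one side and Txndc15 and Ddx46 on the other. H2afy, which encodes the histone variant macroH2A1, averaged 129 ± 2.20 CPM in Lenti-GFP and, in Lenti-AS, 132 ± 1.22 CPM (SD, n = 2 each). Its log2 fold change was 0.03. The log2 fold changes of Neurog1, a proneural factor, of Txndc15 and of the helicase gene Ddx46 were 0.01, -0.14 and -0.05. For these 4 neighbours the adjusted p ran from 0.331 to 0.990 by edgeR's quasi-likelihood test, and the lowest unadjusted p was 0.113, for Txndc15.

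The genes whose pattern over the 4 samples was nearest to that of Pitx1 were Vsig10, Cercam, Efna2, Gfra3 and Sphkap, in that order. Nearness was the Euclidean distance between the log2(CPM + 1) values, each gene centred on its mean, among 10149 genes with a mean normalised count of at least 100. It was 0.22 for Vsig10 and 0.82 for Sphkap. Vsig10 had 48.0 and 48.5 CPM in Lenti-GFP and 14.0 and 10.6 CPM in Lenti-AS. Gfra3, a receptor for artemin that also stands in the list of SC markers, had 50.4 and 48.3 CPM in Lenti-GFP and 19.2 and 18.8 CPM in Lenti-AS. In all 5 genes the Lenti-GFP samples were high and the Lenti-AS samples low, as the measure requires, and the fitted log2 fold changes ran from -3.10 for Cercam to -1.38 for Gfra3 and Sphkap. With 4 samples in 2 groups, the likeness rests mainly on the size of the group difference in log2(CPM + 1). The added 1 narrows that difference for a gene as low as Pitx1 in Lenti-AS. The order therefore does not follow the fitted values. Vsig10, the nearest, had a fitted log2 fold change of -1.97, against -3.28 for Pitx1.

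**Figure D2:**
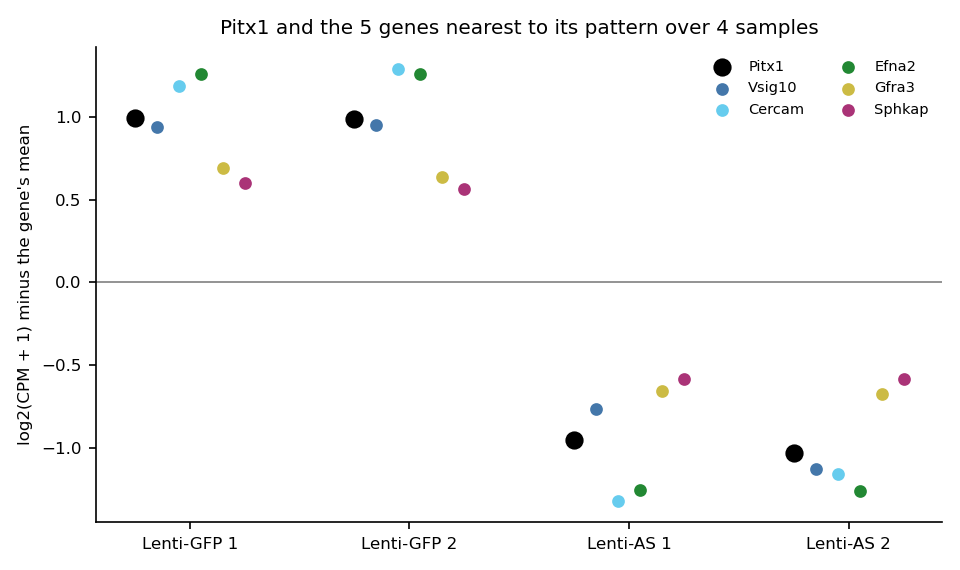
Log2(CPM + 1) minus the gene's mean (vertical axis) in each of the 4 samples (horizontal axis) for Pitx1 (black) and the 5 genes nearest to it. All 6 genes lie above 0 in both Lenti-GFP samples and below 0 in both Lenti-AS samples, with Vsig10 closest to Pitx1 at a distance of 0.22.

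Markers of other cell types were summed in each sample, and those of skeletal muscle moved the same way as Pitx1. They were few in counts and lower in both Lenti-AS samples. Of the 4 listed (Myod1, Myog, Ckm and Des), 3 were tested and all 3 had a lower fitted level, and their summed level was 2.55 to 2.63 CPM in Lenti-GFP and 1.33 to 1.77 CPM in Lenti-AS. None of the 3 was called by edgeR, DESeq2 or limma-voom, and 1, Des, had an unadjusted p under 0.05 in edgeR. Over all 12446 genes tested, edgeR gave 2716 such values. Of the 12 fibroblast markers, 11 have a row and 7 were tested. Their sum was 3827 to 4273 CPM in Lenti-GFP and 2829 to 4688 CPM in Lenti-AS, nearly all from collagen genes. Col1a1 had 840 and 721 CPM in Lenti-GFP and 2131 and 290 CPM in Lenti-AS 1 and Lenti-AS 2. Col1a2 was split in the same way, with 155 and 133 CPM in Lenti-GFP and 340 and 120 CPM in Lenti-AS. Col3a1 had 3260 and 2955 CPM in Lenti-GFP and 2198 and 2400 CPM in Lenti-AS. Among the other fibroblast markers, Fbln1 had 5.43 to 6.77 CPM, Pi16 4.99 to 5.24 CPM, Mfap5 3.19 to 4.22 CPM and Pdgfra 3.08 to 4.07 CPM over the 4 samples, while Dcn, Lum, Dpt and Dpep1 had at most 6 counts in any sample. Of these markers, Col3a1 alone was called by DESeq2 and limma-voom, and 0 by edgeR. Over all 12446 genes tested, DESeq2 called 627, limma-voom 235 and edgeR 246. Perineurial markers (5 with a row of 6 listed, 4 tested) summed to 191 to 197 CPM in Lenti-GFP and 215 to 238 CPM in Lenti-AS. Most of this came from Itgb4, with 165 and 160 CPM in Lenti-GFP and 183 and 203 CPM in Lenti-AS. Slc2a1 had 30.1 to 33.9 CPM over the 4 samples, and Cldn1, Msln and Krt19 had at most 0.764 CPM in any sample. Macrophage markers (6 listed, 2 tested) summed to 3.22 to 3.30 CPM in Lenti-GFP and 3.88 to 4.24 CPM in Lenti-AS. Endothelial markers (5 listed, 3 tested) stayed at 0.696 to 1.21 CPM, and pericyte and smooth muscle markers (6 listed, 4 tested) at 232 to 288 CPM, with overlapping groups. Nearly all of the pericyte and smooth muscle sum was Pdgfrb, with 224 to 279 CPM over the 4 samples. Red cell markers (3 listed, 3 tested) summed to 1982 CPM in Lenti-AS 2 and to 2.69 to 5.19 CPM elsewhere. The 9 SC markers with a row summed to 6827 to 6855 CPM in Lenti-GFP and 7384 to 8641 CPM in Lenti-AS. By edgeR 1 of them, Gfra3, was called, lower, beside 0.667% of all genes tested. Without Lenti-AS 2, the sample with the globin counts, Pitx1 was at -3.17, as given above. The part of these cell types in the level of Pitx1 was not tested, and fewer cells of a type cannot be told apart from less RNA per cell in bulk samples.

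Pbx2 and Pbx3 showed small differences. Pbx2, a HOX partner of broad expression, had 119 and 109 CPM in Lenti-GFP and 95.1 and 99.5 CPM in Lenti-AS, with 11091, 10320, 8335 and 7478 counts. The Lenti-AS samples were both below the Lenti-GFP samples, and 9.40 CPM lay between the nearest samples, less than the 9.93 CPM between the Lenti-GFP samples. The log2 fold change of Pbx2 was -0.23 (standard error 0.07, 95% interval -0.39 to -0.06), and it did not pass the test (adjusted p = 0.142 by edgeR's quasi-likelihood test, unadjusted p = 0.0163). With DESeq2 the adjusted p of Pbx2 was 0.0407, but the fold change was below the cut-off of 1.3, so it was not called there either. Over all alternatives that kept the 4 samples, its adjusted p ran from 0.0407 with DESeq2 to 0.249 with a replicate block. The log2 fold change of Pbx2 was -0.16 without Lenti-GFP 1 and -0.29 without Lenti-GFP 2. It was -0.19 without Lenti-AS 1 and -0.26 without Lenti-AS 2, and each of these was smaller than 1.3-fold.

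Pbx3, another HOX partner, had 45.7 and 49.0 CPM in Lenti-GFP and 52.1 and 45.4 CPM in Lenti-AS. The groups overlapped, with the highest and the lowest value both in Lenti-AS. Its log2 fold change was 0.04 (standard error 0.09, 95% interval -0.18 to 0.26, adjusted p = 0.824 by edgeR's quasi-likelihood test), and its sign changed when Lenti-GFP 1 or Lenti-AS 1 was left out. Without Lenti-AS 2 it was 0.14. Within a library, the ratio of Pbx2 to Pbx3 counts was 2.60 and 2.22 in Lenti-GFP and 1.83 and 2.19 in Lenti-AS.

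The upstream sequence of Pbx2 is shown because Pbx2 had the lowest unadjusted p in edgeR among the tested homeobox genes other than Pitx1. It was thus picked by its value. The sequence is the 250 bases before the start that RefSeq gives on GRCr8 (chr20:4161033-4161282, minus strand), printed 5′ to 3′ with every CpG in capitals. The gene's span in the same annotation reaches further upstream than this start.

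Pbx2: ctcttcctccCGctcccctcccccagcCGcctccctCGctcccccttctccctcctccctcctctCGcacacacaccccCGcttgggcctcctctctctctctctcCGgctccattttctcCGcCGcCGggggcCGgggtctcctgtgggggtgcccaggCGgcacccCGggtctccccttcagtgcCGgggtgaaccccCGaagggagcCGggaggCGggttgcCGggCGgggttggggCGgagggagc

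This stretch holds 19 CpG. In the whole promoter window, which adds the first 50 bases of the transcript, Pbx2 had 24 CpG and 74.7% G and C, where the median of all 33469 rat promoters was 7 CpG and 51.7%. Promoters were in the RefSeq table for 5 of the 8 genes, Pbx2, Meis1, Prrx1, Msx1 and Msx2. Pitx1, Pbx3 and Meis2 had no entry in that table.

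The same 5 windows were searched on both strands for 7 short motifs tied to the study's factors or to the genes' own proteins. These were the AP-1 site TGANTCA, the EGR site GCGNGGGCG, the YY1 site GCCATNTT, the bicoid-type site TAATCC, the MEIS site TGACAG, the PBX-HOX site TGATNNAT and the TATA box TATAAA. None of the 5 windows held any of them. Among all rat promoters of that length, 7.33% held the AP-1 site, 4.98% the EGR site, 6.96% the YY1 site, 7.17% the bicoid-type site, 19.0% the MEIS site, 9.10% the PBX-HOX site and 14.2% the TATA box, so most promoters lack each one. The absence says only that these letters do not stand in these windows.

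The MEIS genes differed little between the groups. Meis1, which encodes a PBX and HOX partner first found in myeloid leukemia, had 14.3 and 14.7 CPM in Lenti-GFP and 12.7 and 15.2 CPM in Lenti-AS. Its lowest and highest values were both in Lenti-AS, with a spread of 2.56 CPM there against 0.428 CPM in Lenti-GFP. The log2 fold change of Meis1 was -0.05 (standard error 0.11, 95% interval -0.33 to 0.22, adjusted p = 0.817 by edgeR's quasi-likelihood test), and it was 0.08 without Lenti-AS 1 and -0.19 without Lenti-AS 2. Meis2, its close paralog, had 19.0 and 19.7 CPM in Lenti-GFP and 17.0 and 18.5 CPM in Lenti-AS. Both Lenti-AS samples of Meis2 were below both Lenti-GFP samples, by 0.513 CPM, which is less than the 0.694 CPM between the Lenti-GFP samples. The log2 fold change of Meis2 was -0.13 (standard error 0.08, 95% interval -0.32 to 0.07, adjusted p = 0.402 by the same test), and -0.19 without Lenti-AS 2. The ratio of Meis1 to Meis2 counts was 0.750 and 0.746 in Lenti-GFP and 0.747 and 0.824 in Lenti-AS, so Lenti-AS 2 alone stood higher.

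For Pbx3, Meis1 and Meis2 the whole 95% interval lay within the cut-off of 1.3-fold in either direction, which is 0.38 on the log2 scale. The interval of Pbx2 passed it slightly at its lower end. Unlike these genes, Msx1, Msx2 and Prrx1 were counted too thinly for such a bound.

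**Figure D3:**
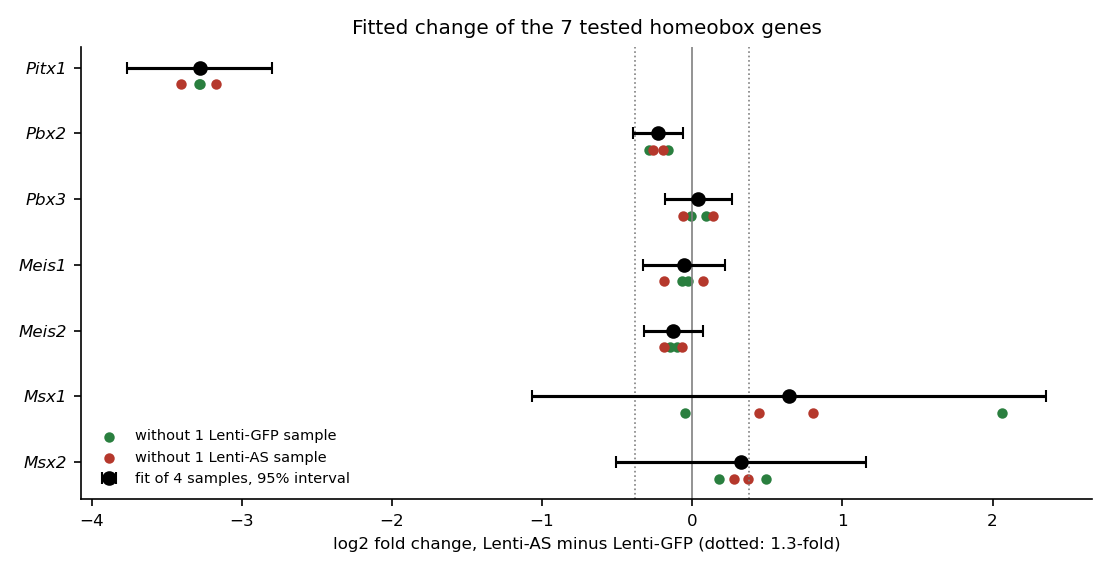
Fitted log2 fold change of Lenti-AS against Lenti-GFP (horizontal axis) for the 7 tested homeobox genes, with the 95% interval of the 4-sample fit in black and, below each, the values with 1 Lenti-GFP sample (green) or 1 Lenti-AS sample (red) left out. Pitx1 lies at -3.28 and the others between -0.23 and 0.65, and the dotted lines mark a 1.3-fold change.

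The MSX genes and Prrx1 were near the limit of detection. Msx1, a repressor that holds progenitor cells undifferentiated, had 4 and 18 counts in Lenti-GFP and 18 and 12 in Lenti-AS. The Lenti-GFP 1 sample was low and the other 3 were alike within counting error, with exact Poisson intervals of 1.09 to 10.2 counts for Lenti-GFP 1 and 10.7 to 28.4 counts for Lenti-GFP 2. Its log2 fold change was 0.65 (standard error 0.70, 95% interval -1.06 to 2.36, adjusted p = 0.620 by edgeR's quasi-likelihood test), and this value rested on Lenti-GFP 1, since it was -0.05 without that sample and 2.06 without Lenti-GFP 2. Without Lenti-AS 2 it was 0.81.

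Msx2, its paralog in skull and tooth development, had 33 and 27 counts in Lenti-GFP and 34 and 31 in Lenti-AS. Scaled to depth these were 0.353 and 0.285 CPM in Lenti-GFP and 0.388 and 0.412 CPM in Lenti-AS. The Lenti-AS samples lay just above the others, by 0.0344 CPM, which is less than the spread of 0.0686 CPM in Lenti-GFP. The log2 fold change of Msx2 was 0.32 (standard error 0.34, 95% interval -0.51 to 1.16, adjusted p = 0.609 by the same test), and 0.28 without Lenti-AS 2. Prrx1 had 11 and 5 counts in Lenti-GFP and 8 and 8 in Lenti-AS, and was not tested. Its paralog Prrx2 had 6 and 5 counts in Lenti-GFP and 6 and 4 in Lenti-AS. The intervals of Msx1 and Msx2 include 0 and reach past 1.3-fold in both directions, so these counts leave changes of that size unresolved.

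The upstream sequences of the MSX genes are shown because this paralog pair combined few counts with many CpG. They are the 250 bases before the RefSeq start on GRCr8, both on the plus strand, at chr14:77185552-77185801 for Msx1 and chr17:11102034-11102283 for Msx2, again with every CpG in capitals.

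Msx1: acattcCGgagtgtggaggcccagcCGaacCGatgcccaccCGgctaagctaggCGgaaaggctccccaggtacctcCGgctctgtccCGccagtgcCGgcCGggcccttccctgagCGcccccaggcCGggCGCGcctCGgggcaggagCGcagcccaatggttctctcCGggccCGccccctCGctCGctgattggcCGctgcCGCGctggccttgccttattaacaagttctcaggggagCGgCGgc

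Msx2: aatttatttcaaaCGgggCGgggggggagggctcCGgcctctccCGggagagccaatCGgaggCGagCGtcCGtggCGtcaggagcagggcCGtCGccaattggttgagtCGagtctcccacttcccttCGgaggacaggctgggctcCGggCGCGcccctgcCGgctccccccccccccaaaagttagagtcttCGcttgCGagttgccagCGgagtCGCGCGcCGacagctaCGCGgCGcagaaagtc

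In these stretches Msx1 has 24 CpG and Msx2 27. Over the whole window Msx1 had 34 CpG, more than 93.2% of all rat promoters, and Msx2 had 30, more than 89.7%. Prrx1, which was also thinly counted, had 5 CpG and 41.0% G and C in its window, and Meis1 had 9 CpG and 43.7%. CpG content therefore did not go with detection among these 5 genes, which is a description of few genes.

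Counted together, 1 of the 7 tested homeobox genes was called, Pitx1, and it was called lower. Of all 12446 genes tested, 246 (1.98%) were called in either direction and 83 (0.667%) were called lower. Pitx1 was chosen for this difference, so nothing is read from its call. With either Lenti-GFP sample left out, 0 of the 7 were called, in fits that called 1 gene of 12446 each. Of the other 6 tested genes, 0 were called by edgeR, DESeq2 or limma-voom, and 1, Pbx2, had an unadjusted p under 0.05 in edgeR. Over all 12446 genes tested, 2716 had an unadjusted p under 0.05 in edgeR, so such a value is common here. In 4 of the 7 tested genes (Pitx1, Pbx2, Meis2 and Msx2) the groups did not overlap, beside 54.9% of all genes tested, so this share is near that of any gene. The median log2 fold change of the 7 genes was -0.05 and that of all genes tested was 0.0071. With 2 samples per group an exact two-sided permutation test of a single gene cannot give a p under 0.333.

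Other homeobox genes of the same classes were compared in lists. In the TALE class, 13 of 14 listed genes have a row and 10 were tested, with 0 called, a median log2 fold change of 0.11 and a range of -0.61 to 0.57. Pknox1, whose protein PREP1 is another PBX partner, had a log2 fold change of 0.12 (adjusted p = 0.578 by edgeR's quasi-likelihood test). The summed level of Pknox1 and Pknox2 was 19.7 and 20.1 CPM in Lenti-GFP and 24.6 and 23.6 CPM in Lenti-AS. The other paired-like list had 16 genes with a row and 3 tested, and the NK-like list, to which the MSX genes belong, had 10 with a row and 4 tested. Their median log2 fold changes were -0.02 and 0.17. Over these lists together 0 of 17 tested genes were called by edgeR, DESeq2 or limma-voom, where edgeR called 1.98% of all genes. Of the 17, 2, Pknox2 and Dlx1, had an unadjusted p under 0.05 in edgeR, beside 2716 of all 12446 genes tested.

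Among the HOX genes themselves, the partners of PBX and MEIS, 20 of 27 rows were tested and 1 was called, Hoxd3. Of all genes tested, 1.98% were called. Hoxd3 had 16.2 and 15.2 CPM in Lenti-GFP and 1.68 and 0.798 CPM in Lenti-AS. The log2 fold change of Hoxd3 was -3.65, and it was -3.22 without Lenti-AS 2. With either Lenti-GFP sample left out, Hoxd3 was not called. The other 19 had a median log2 fold change of 0.17 and 0 were called by edgeR, DESeq2 or limma-voom. Of the 19, 1, Hoxb8, had an unadjusted p under 0.05 in edgeR, beside 2716 of all 12446 genes tested. Hoxd4, next to Hoxd3 in paralog order in the HoxD cluster, had 11.0 and 10.5 CPM in Lenti-GFP and 10.8 and 11.2 CPM in Lenti-AS.

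Regulators of limb mesenchyme, the setting in which Pitx1, Prrx1 and Msx1 are best known, had 0 called genes among 10 tested of 15. Among all genes tested 1.98% were called, and the median log2 fold change of the list was 0.20. In this list 1 gene, Tbx2, had an unadjusted p under 0.05 in edgeR and was called by DESeq2, and 0 were called by limma-voom. Over all 12446 genes tested, 2716 had such a p in edgeR and 627 were called by DESeq2. Tbx4, the hindlimb T-box gene that PITX1 activates, was thinly counted, with 26 and 37 counts in Lenti-GFP and 39 and 43 in Lenti-AS. These were 0.278 and 0.390 CPM in Lenti-GFP and 0.445 and 0.572 CPM in Lenti-AS. Its log2 fold change was 0.60 (standard error 0.36, adjusted p = 0.379 by edgeR's quasi-likelihood test). An effect of PITX1 on Tbx4 was not tested. Rasal1, a Ras GTPase-activating gene that PITX1 is known to induce, had 5 and 4 counts in Lenti-GFP and 8 and 6 in Lenti-AS and was not tested.

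Of the 18 genes known to act with, above or below the 8, 16 were tested and 2 were called, both lower, where 1.98% of all genes were called and 0.667% were called lower. The list was chosen with results of these data known, so the count is a description. These were Tnc and Postn, matrix genes of mesenchyme. Tnc, which encodes tenascin C and is a known target of PRRX1, had 1242 and 1214 CPM in Lenti-GFP and 482 and 589 CPM in Lenti-AS. The groups did not overlap, as in 54.9% of all genes tested in either direction, and the log2 fold change of Tnc was -1.20. Postn, which encodes periostin, had 6165 and 6426 CPM in Lenti-GFP and 3795 and 3579 CPM in Lenti-AS (log2 fold change -0.77). Without Lenti-AS 2 the log2 fold changes of Tnc and Postn were -1.35 and -0.73, and with either Lenti-GFP sample left out neither gene was called. Prrx1 itself had between 5 and 11 counts in every sample. The median log2 fold change of the list was 0.07, and it held genes on both sides, 8 with a higher and 8 with a lower fitted level. Ccnd1, Ncor1 and Crebbp, a cyclin, a corepressor and a coactivator, had log2 fold changes of 0.28, 0.29 and 0.36 and were not called. Each had an unadjusted p under 0.05 in edgeR, as did 2716 of all 12446 genes tested.

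**Figure D4:**
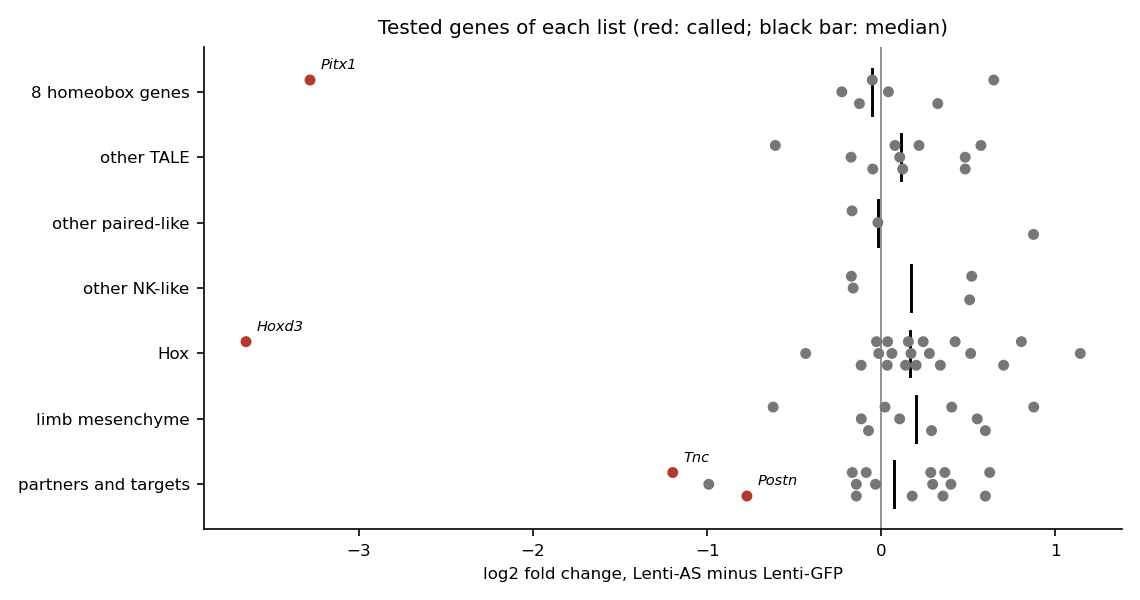
Fitted log2 fold change of Lenti-AS against Lenti-GFP (horizontal axis) for each tested gene of the 8 homeobox genes and of 6 lists of related genes, with called genes in red and the median of each list as a black bar. Pitx1, Hoxd3, Tnc and Postn are the called genes, all to the left of 0, and the medians lie between -0.05 and 0.20.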

How the data were processed

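Reads of 50 bp from paired-end runs were aligned to rn6, and the authors deposited whole-number counts per gene, made by featureCounts over RefSeq exons, without normalization. The aligner is hisat2 in the paper and GSNAP in the submitters' processing notes, and versions, strand and multiple-match settings are not given in the sources used here. Of the 17950 rows, 1 repeats the header and was dropped, and 1623 genes had 0 counts in all samples. That row gives longer library names for all columns but Lenti-AS 1.

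Counts were fitted with edgeR 4.0.16 (R 4.3.3; TMM, glmQLFit, glmQLFTest, Lenti-AS against Lenti-GFP) over the 12446 genes that had 10 or more counts in 2 or more samples, with Benjamini-Hochberg adjustment across them. Standard errors came from the F statistic, and intervals from its t quantiles. The fit was tested on counts simulated with a single dispersion for every gene and both groups. That run does not cover the unequal spread of the groups given next. Replicates differed by more than sampling noise (chi-square per gene 26.0 in Lenti-GFP and 83.1 in Lenti-AS). Alternatives were DESeq2 1.42.0 (the study's own test), limma-voom (limma 3.58.1), other scalings and filters, a replicate block and leaving out each sample.

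The genes, lists and tests were chosen with earlier results of these data known. Named were the 8 genes, the called genes of each list, the related genes Pknox1 and Prrx2, Tbx4 and Rasal1, the 5 genes nearest to Pitx1 in pattern and its 4 neighbours. Others, such as Pitx3, Hoxd4, Pknox2, Dlx1, Hoxb8, Tbx2, Des, Ccnd1, Ncor1 and Crebbp, were named after their values were seen. Some genes that the rule names are not reported here. Symbols matched the GRCr8 gene table for all 8 genes.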

Additional observations from a re-analysis of the deposited data

How the results depend on the processing

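Over the 10 alternatives that kept all 4 samples, the log2 fold change of Pitx1 lay between -3.29 and -3.25, and 1 of the 8 genes was called in each. With 1 sample left out it lay between -3.41 and -3.17, and 0 to 1 of the 8 genes were called. The count of all genes called was 246, against 627 with DESeq2, 17 with a replicate block and 1 to 1519 with 1 sample left out. Leaving out 1 sample gave log2 fold changes of -0.0630 to 0.14 for Pbx3, -0.19 to 0.0750 for Meis1 and -0.0473 to 2.06 for Msx1, which include both signs, while Pbx2 stayed between -0.29 and -0.16, Meis2 between -0.19 and -0.07 and Msx2 between 0.18 and 0.49. The cause was not tested.

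No label ties a replicate number to a culture or day, and the deviations of samples with 1 number were unrelated (correlation -0.0176 across genes), so the samples were not treated as paired. With the replicate block the log2 fold change of Pitx1 was -3.28. Library totals gave a median of all genes of 0.0389 and did not turn the sign of any of the 7 tested genes. Prrx1 was tested only without the low-count filter (log2 fold change 0.20, adjusted p = 0.910 by edgeR), and Msx1 and Msx2 could not be tested with the filter of 1 CPM in 2 samples. DESeq2 gave no adjusted p for Msx1 and Msx2. The fit without the globin genes was added after seeing the data and called 245 genes. Few counts limit what can be said of Prrx1, Msx1 and Msx2.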
